A study of Mus musculus with 4 samples.

Results

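Forelimb-only wide Meis regions are Meis-bound stretches of at least 200 bp that were called in mouse forelimb (FL) buds and share no base with any region called in hindlimb (HL) buds. Summits of the FL list that share chromosome, start and end count as 1 region, and the regions were selected on width and on position against the HL list. By this rule 3913 of the 21338 FL regions were members, set against 16987 HL regions. Buds were collected from wild-type C57BL/6 embryos at E10.5, at about 36 somites, and about 500 FLs and about 500 HLs were pooled. Each limb gave 1 library precipitated with a pair of anti-Meis antibodies used together and 1 input library of chromatin that was not precipitated, 4 libraries in all. Neither limb had a replicate, so a difference between FLs and HLs has no replicate spread to be read against, and FLs were not tested against HLs. A pool of whole buds holds mesenchyme together with ectoderm, vessels and migrating muscle precursors, and the cell type behind a region is not given by these data.

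Meis1 and Meis2 are homeodomain transcription factors of the TALE family, which bind DNA alone or together with Pbx and Hox proteins. In the limb they are present throughout the early bud and later become restricted to its proximal part, where they promote proximal identity. FL and HL buds share most of their patterning genes but differ in identity factors, with Tbx5 expressed in the FL and Tbx4 and Pitx1 in the HL.

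Sequence is shown only for promoters, matched by gene symbol in RefSeq (GRCm38.p6), a later build than the mm9 of the regions. Of the 25 placed gene starts with a member over the window from 250 bp before to 50 bp after the start, 18 matched a promoter by symbol. Of the 25, 4 had a member with a q of at most 0.05, a limit passed by 21.1% of all members and 17.4% of all FL regions, namely Zfp503, Trib2, Esrrg and Tshz1. Zfp503, a zinc finger repressor gene of the limb bud, and Trib2, a pseudokinase gene, are shown because each had a single RefSeq promoter. Trib2, Esrrg and Tshz1 were chosen after their values were seen. The 250 bases before the start are printed 5′ to 3′ on the minus strand of GRCm38.p6, from chr14:21989602-21989851 for Zfp503 and chr12:15816786-15817035 for Trib2, and capitals mark the Meis hexamer TGACAG and the Hox-Pbx octamers TGATTTAT and TGATTGAT, searched on both strands.
Zfp503: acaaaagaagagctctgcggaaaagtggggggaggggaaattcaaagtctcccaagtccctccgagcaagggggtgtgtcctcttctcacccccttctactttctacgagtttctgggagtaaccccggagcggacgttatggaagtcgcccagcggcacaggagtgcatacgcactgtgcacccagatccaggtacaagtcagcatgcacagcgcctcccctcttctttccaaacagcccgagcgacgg
Trib2: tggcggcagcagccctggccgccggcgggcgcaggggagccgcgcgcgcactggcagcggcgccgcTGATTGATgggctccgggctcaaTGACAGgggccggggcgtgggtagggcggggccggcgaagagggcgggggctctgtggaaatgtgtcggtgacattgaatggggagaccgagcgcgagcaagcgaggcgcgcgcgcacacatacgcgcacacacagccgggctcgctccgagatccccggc
The Zfp503 promoter held 0 of these letter strings and the Trib2 promoter held 2, TGATTGAT and TGACAG, which do not overlap each other. Of 32851 RefSeq promoters, 15.9% held TGACAG, 0.837% TGATTTAT and 0.670% TGATTGAT. Whether the RefSeq start of each gene is the start used in mm9 was not determined, so a match describes these bases and not the bound site.

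At Zfp503 the member spanned chr14:22808715-22809158 in mm9, covered the gene start and had its highest summit 221 bp upstream, with a fold enrichment of 4.03 and a q of 0.0189. An HL region with a fold of 8.08 lay 597 bp from it. The Trib2 member, chr12:15823710-15824105, had a fold of 4.54 (q = 0.00183) and its summit 230 bp upstream of the start, without covering the start itself. There the nearest HL region was 209784 bp away. These promoter members thus stood in different surroundings, the Zfp503 member beside a strong HL region and the Trib2 member far from any. At Tshz1, which encodes a zinc finger transcription factor, the member reached a fold of 6.57 (q = 1.61e-11) and lay 778 bp from an HL region with a fold of 2.51. At Esrrg, an orphan nuclear receptor gene, the fold was 4.08 (q = 0.00992), with the summit 81 bp downstream of the start.

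The fold enrichment of a region is the ratio of ChIP signal to local input at its highest summit, and q is the adjusted p of the peak caller, made for each library on its own. Both come from the libraries that defined the members, so they are given as a description, with no test. The fold of the members ranged from 1.53 to 12.6, with a median of 2.88 and quartiles of 2.53 and 3.65. In the 3245 wide FL regions that overlapped an HL region the median was 4.46, with quartiles of 3.36 and 6.04. The members were therefore lower than the shared wide regions. The 12612 narrower FL-only regions had a median of 2.65, with quartiles of 2.35 and 2.89 and a maximum of 6.95, so their median was near that of the members but their upper part was lower. The 921 wide HL-only regions had a median of 2.89, with quartiles of 2.63 and 3.34 and a maximum of 8.35. The folds took only 688 different values, and 241 members had the same fold of 2.70.

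Of the members, 825 had a q of at most 0.05 (21.1%, 95% Wilson interval 19.8 to 22.4%), and 2392 (61.1%) had a q of 1. The same limit was passed by 17.4% of all FL regions, by 41.7% of wide FL regions and by 40.6% of wide HL regions. Among the classes compared, it was passed by 66.5% of wide FL regions that overlapped an HL region (64.9 to 68.1%), by 3.20% of narrower FL-only regions and by 9.99% of wide HL-only regions (8.22 to 12.1%). The intervals here and below cover counting error only. Most members thus passed the permissive p of the peak caller without passing this limit on q. For peaks specific to 1 limb the study itself used a p cutoff of 0.0005, which 1542 members (39.4%) reached. A fold of at least 5 was reached by 252 members (6.44%), against 7.67% of all FL regions and 21.3% of wide ones.

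**Figure D1:**
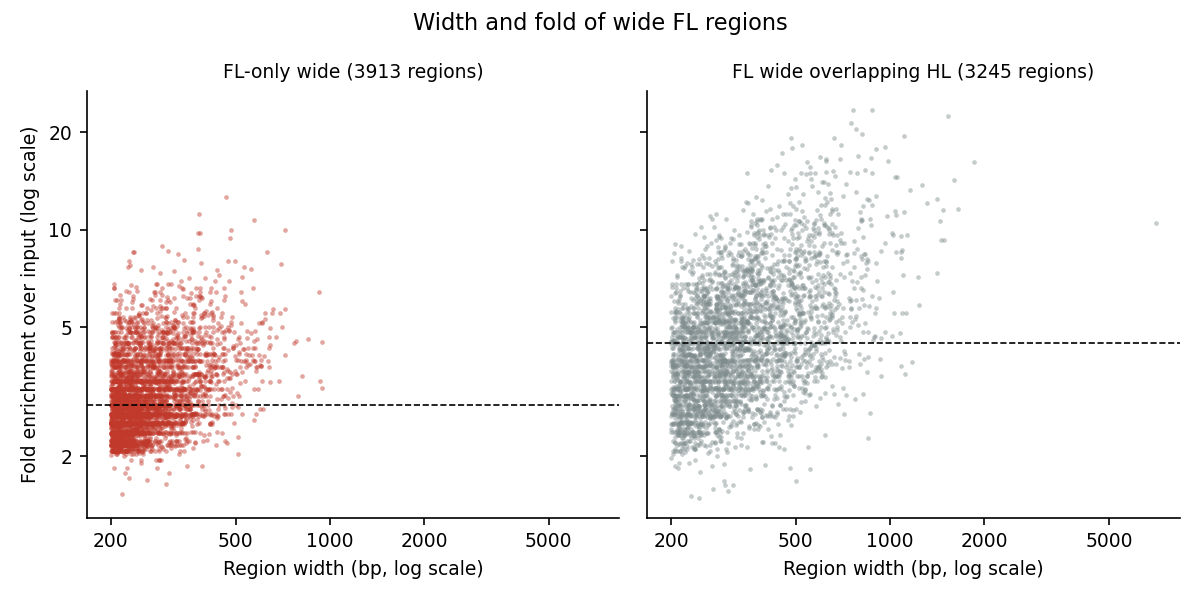
Width in bp against fold enrichment over input, both on log scales, for each FL-only wide region (left) and each wide FL region that overlapped an HL region (right). Dashed lines mark the median folds, 2.88 and 4.46, and the shared regions extend to higher folds and larger widths.

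The median width of the members was 246 bp, with a lower quartile of 219 bp and a maximum of 947 bp, against a median of 314 bp for the shared wide regions. Together the members covered 1.07 Mb. A single summit was found in 3401 members, 2 summits in 471, 3 in 36, 4 in 4 and 5 in 1 member. More than 1 summit was thus present in 13.1% of members (12.1 to 14.2%), compared with 24.0% of the shared wide regions (22.5 to 25.5%). The limit of 200 bp took a different part of each list. The shortest region was 119 bp in FLs and 100 bp in HLs, and 33.5% of FL regions but 18.5% of HL regions were wide.

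Of all FL regions, 77.4% shared no base with an HL region, and of the 7158 wide ones 54.7% did, which is the share that the rule itself sets. This share fell with height. It was 80.2% (77.6 to 82.6%) for wide FL regions with a fold under 2.5, 57.9% (55.6 to 60.0%) from 3 to 4 and 22.7% (20.2 to 25.5%) from 5 to 7. Only 34 of the 564 wide FL regions with a fold of 7 or more were members (6.03%, 4.35 to 8.31%). Wide HL regions with no FL region showed the same order at lower shares, from 54.2% at a fold under 2.5 to 2.16% (5 of 231) at 7 or more, and 29.3% over all wide HL regions. The share also fell with width, from 71.3% of the FL regions of 200 to under 250 bp to 15.7% of those of 500 bp and over. Among the members in this last class the median fold was 4.11 and 66.7% had a q of at most 0.05, against 2.70 and 12.9% in the narrowest class.

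**Figure D2:**
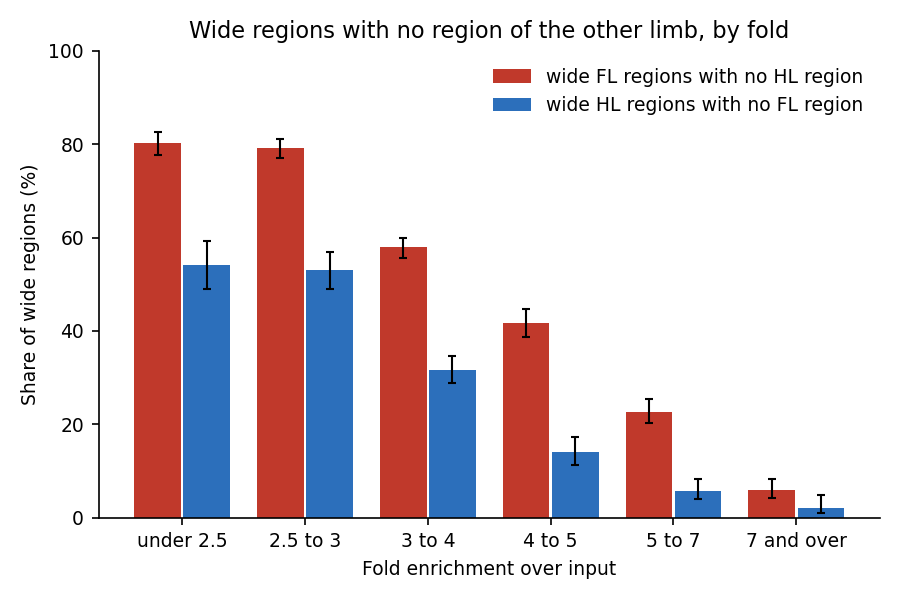
Share of wide regions, in percent, with no region of the other limb, by fold enrichment over input, for FL (red) and HL (blue); bars start at 0 and error bars are 95% Wilson intervals. The share falls from 80.2% to 6.03% in FLs and from 54.2% to 2.16% in HLs.

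On either side of the width limit the median folds were the same. The 524 members of 200 to under 210 bp had a median fold of 2.70 and 10.9% had a q of at most 0.05, and the 688 FL-only regions of 190 to under 200 bp, just too narrow, had a median of 2.70 and 9.59%. At the limit on overlap they were not. The 65 members with an HL region at most 100 bp away had a median fold of 2.84. The 257 wide FL regions that shared 1 to 100 bp with HL regions, and so were not members, had a median of 3.21, and 30.7% of them had a q of at most 0.05 against 12.3%.

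The nearest HL region was a median of 22.1 kb from a member, with quartiles of 5.10 and 74.7 kb and a maximum of 3807 kb. An HL region lay within 1 kb of 406 members (10.4%, 9.46 to 11.4%), within 10 kb of 1338 (34.2%, 32.7 to 35.7%) and within 100 kb of 3125 (79.9%). Members with a q of at most 0.05 stood farther away, with a median of 33.7 kb and 28.1% within 10 kb (25.2 to 31.3%). The narrower FL-only regions had a median of 19.6 kb and 34.9% within 10 kb, a share whose interval overlaps that of all members. Wide HL-only regions had an FL region within 10 kb more often, in 43.6% (40.5 to 46.9%), and the FL list they were set against was the longer of the lists. For 66 of the 406 members with a neighbour within 1 kb, that HL region had a q of at most 0.05 (16.3%, 13.0 to 20.2%), against 10.1% of all HL regions. HL signal below the cutoff of the peak caller was not analysed here, so a member is a place with no called HL region and not a place shown to be unbound in HLs.

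**Figure D3:**
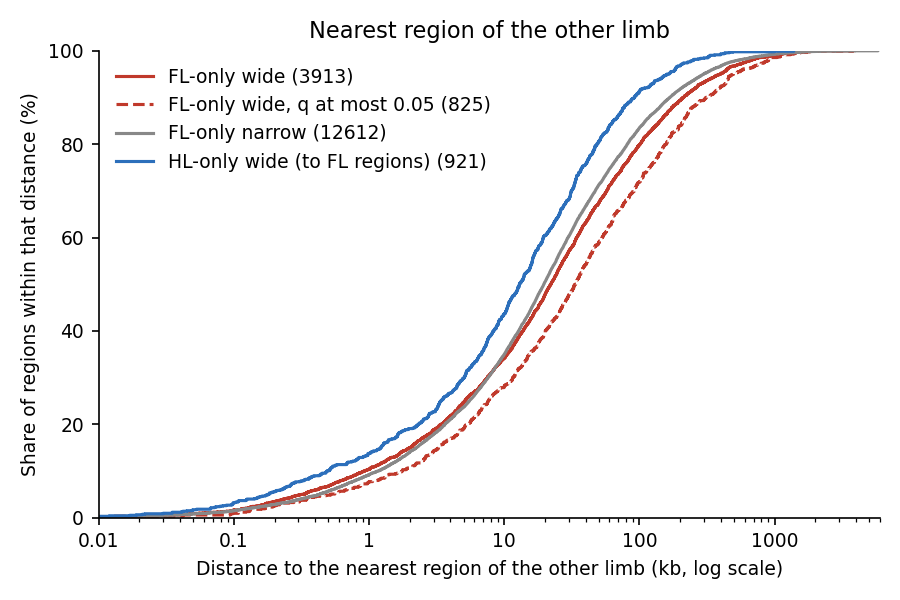
Share of regions, in percent, with a region of the other limb within the distance on the x axis (kb, log scale); distances under the lower limit of the axis are drawn at it. The FL-only wide regions with a q of at most 0.05 (dashed red) reach 28.1% within 10 kb, against 34.2% of all FL-only wide regions (red), 34.9% of narrower ones (grey) and 43.6% of wide HL-only regions (blue).

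The 15 members with the highest folds ranged from 8.38 to 12.6, and their widths from 236 to 718 bp. For 6 of them the nearest HL region was over 100 kb away and for 3 it was within 10 kb. The highest of all, chr11:63339480-63339944, had a fold of 12.6 (q = 7.17e-26) and ranked 64 among all FL regions. It held 2 summits between Pmp22, a myelin protein gene, and Hs3st3b1, a heparan sulfate sulfotransferase gene, 395 kb and 396 kb downstream of their starts. No protein-coding gene starts between them in the GRCm38 annotation, and the nearest HL region, with a fold of 2.88 and a q of 1, was 92.4 kb away. A second member near Hs3st3b1, chr11:63765855-63766540, was among the members with the most summits, with 4 summits and a fold of 3.41 (q = 0.186), 30.5 kb upstream of the start.

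The next member, chr7:56101122-56101503, had a fold of 11.2 (q = 2.13e-20) and an HL region of fold 2.35 at 38.8 kb. On chromosome 14, chr14:23416714-23417286 had a fold of 10.7 (q = 2.49e-18), and here a clearly called HL region stood 5.72 kb away, with a fold of 5.60 (q = 3.08e-09). The member chr14:68013002-68013719 held 3 summits with a highest fold of 9.95 (q = 3.35e-16), 79.6 kb upstream of Gm6878 and 321 kb downstream of the start of Cdca2, a cell division gene. These members with the highest folds thus included places with a strong HL neighbour and places without.

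The nearest placed gene starts of the others lay at various distances. The member chr16:28385421-28385903 (fold 9.95, q = 3.35e-16) was 59.7 kb downstream of the start of Fgf12, a gene of the intracellular Fgf homologous factors, and 354 kb from any HL region. Since Fgf12 spans 593 kb in GRCm38, this distance falls within the length of the gene. Upstream of Fbxl7, an F-box gene, chr15:26857683-26858067 had a fold of 9.78 (q = 3.35e-16) at 32.6 kb from the start, with an HL region of fold 2.68 at 9.02 kb. The member chr13:90069049-90069427 (fold 8.74, q = 3.76e-13) was 159 kb upstream of Tmem167 and 187 kb upstream of Vcan, which encodes the matrix proteoglycan versican, with the nearest HL region 132 kb away. The member chr15:11416622-11417252 had a fold of 8.52 (q = 2.87e-12) and was 87.5 kb upstream of Tars, a tRNA synthetase gene, and 419 kb downstream of the start of Npr3, a natriuretic peptide clearance receptor gene.

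The member chr3:66204728-66205208 had a fold of 9.43 (q = 1.46e-16) and lay 104 kb upstream of Veph1 and 581 kb downstream of the start of Shox2, a homeobox gene needed for the proximal limb skeleton. An HL region of fold 5.20 (q = 6.47e-05) was 21.3 kb away. In the GRCm38 annotation the gene Rsrc1 starts between Veph1 and Shox2. The only member within 100 kb of the Shox2 start, 16.7 kb downstream, had a fold of 2.37 and a q of 1. The most isolated of the 15 were chr3:25706610-25706914 (fold 8.60, q = 2.21e-12), with no HL region for 1383 kb, and chr19:49705318-49705644 (fold 8.38, q = 7.81e-13), with none for 1311 kb. The others were on chromosomes 1, 4, 8 and 16, at chr1:185773037-185773416 (fold 9.78, q = 3.35e-16), chr4:19660514-19660749 (fold 8.54, q = 8.26e-13), chr8:124630231-124630522 (fold 8.89, q = 8.26e-13) and chr16:67249553-67249789 (fold 8.54, q = 2.85e-14). Exon or intron position was not determined for any member, since an mm9 annotation was not used here.

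The widest members differed in height. The widest of all, chr2:178441490-178442436, spanned 947 bp with 3 summits, but its fold was 3.24 and its q 0.712. It lay between the cadherin genes Cdh26 and Cdh4, 276 kb downstream of the start of the first. The member with the most summits, 5 over 930 bp at chr18:69070313-69071242, had a fold of 3.41 (q = 0.499) and was 433 kb upstream of Tcf4, a bHLH factor gene. In contrast, chr3:85991347-85992272 (926 bp, 3 summits) had a fold of 6.42 (q = 1.17e-06), 301 kb upstream of Glt28d2 and 360.2 kb downstream of the start of Mab21l2. These are the nearest placed starts only, as 5 protein-coding genes start between them in the GRCm38 annotation. The member chr13:53765179-53766123 (945 bp, 4 summits) had a fold of 4.50 (q = 0.00530), and chr7:143250093-143250946 (854 bp, 3 summits), between Mki67 and Mgmt, had a fold of 4.58 (q = 0.000955) with an HL region only 170 bp away. Of the 5 widest members, 3 thus had a q of at most 0.05.

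The members with the most summits also included both kinds. Besides the members with 5 and 4 summits on chromosomes 18 and 13, chr14:23017257-23018027 held 4 summits with a fold of 4.46 (q = 0.00988), 179 kb downstream of the start of 1700112E06Rik, and an HL region of fold 4.11 was 5.50 kb away. The member chr5:119410298-119411115 held 4 summits with a fold of 3.53 (q = 0.186) and was 400.1 kb downstream of the start of Med13l and 710.2 kb upstream of Tbx3, a limb T-box gene, with an HL region of fold 3.92 at 15.8 kb.

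Members also stood together. Runs of at least 3 members with gaps of at most 50 kb numbered 130 and held 462 members (11.8%, 10.8 to 12.9%). The largest run, with 12 members over 132 kb at chr11:96155861-96287885, lay in and beside the HoxB complex, whose genes set regional identity along the body axis. It covered the surroundings of the starts of Hoxb5, Hoxb4, Hoxb3, Hoxb2 and Hoxb1, and its last member was 38.1 kb upstream of Skap1. Its members stood among regions of both limbs, as the same stretch held 57 FL regions, 23 of them overlapping HL regions, and 39 HL regions. Members were thus 12 of 57 FL regions here, against 3913 of 21338 over the whole FL list. Of that whole list 77.4% overlapped no HL region. The size of the run therefore goes with the number of FL regions in the stretch and is not read as a trait of members. The folds of the 12 members ran from 2.03 to 4.03, and 2 had a q of at most 0.05. The highest, chr11:96213167-96213526, had its summit 0.294 kb downstream of the Hoxb2 start (fold 4.03, q = 0.000121), with an HL region 0.560 kb away. The other was chr11:96204501-96204714, 8.27 kb upstream of the same start (fold 3.65, q = 0.0333).

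The next run, 7 members over 113 kb at chr14:23416714-23530187, differed in height. It began with the member of fold 10.7 given above and held 4 members with a q of at most 0.05, among them chr14:23527157-23527875 (fold 5.68, q = 1.27e-05), which was 36.2 kb from an HL region, and chr14:23466677-23466894 (fold 4.35, q = 0.00407), which was 0.130 kb from one. The stretch held 18 FL regions, 7 of them overlapping HL regions, and 9 HL regions. A further run of 6 members on the same chromosome, chr14:22937296-23060433, had folds of 2.37 to 4.46, with 1 member of q at most 0.05. By contrast, the 7 members at chr5:141041746-141147193, around the starts of Grifin and of Lfng, which encodes a glycosyltransferase that modifies Notch, had folds of 2.08 to 2.55 and none had a q of at most 0.05. Nor did any of the 6 members at chr10:79323288-79384539, with folds of 2.08 to 3.38. Further runs of 6 members, tied in size with those on chromosomes 10 and 14, were chr17:25731611-25800705, with folds of 2.08 to 6.06 and 1 member of q at most 0.05, and chr4:140556268-140604597, with folds of 2.22 to 3.06 and none.

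Gene starts in mm9 were worked out for 2023 genes from the distances that the study lists between its peaks and genes. All 3602 distances used belong to FL regions that overlap an HL region, so the placed genes lie near shared regions by construction, and genes near members alone can be missing. A member was within 5 kb of a placed start in 134 cases (3.42%, 2.90 to 4.04%) and over 500 kb from any in 1374 (35.1%). The corresponding shares of the shared wide regions were 4.87% and 19.8%, and because of how the genes were placed nothing is read from the difference. Narrower FL-only regions, which the distances did not include either, gave 3.08% (2.80 to 3.40%) within 5 kb. Of the 2023 placed starts, 39.5% had a member within 100 kb and 11.2% had one with a q of at most 0.05.

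Of 113 limb genes in 12 lists, 71 could be placed, and 45 of these had a member within 100 kb of the start (63.4%), 17 of them with a q of at most 0.05 (23.9%). Both shares are higher than those of all placed starts, 39.5% and 11.2%, but the genes were listed with earlier results known, so the difference is a description of these lists. At 59 of the 71 genes (83.1%) an FL region that overlapped an HL region was present too, against 63.8% of all placed starts, so the higher share was not particular to members. The highest member of the 17 genes was a median of 75.5 kb from the start, upstream at 8 genes and downstream at 9. In 7 of the 17 an HL region stood within 10 kb of it.

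**Figure D4:**
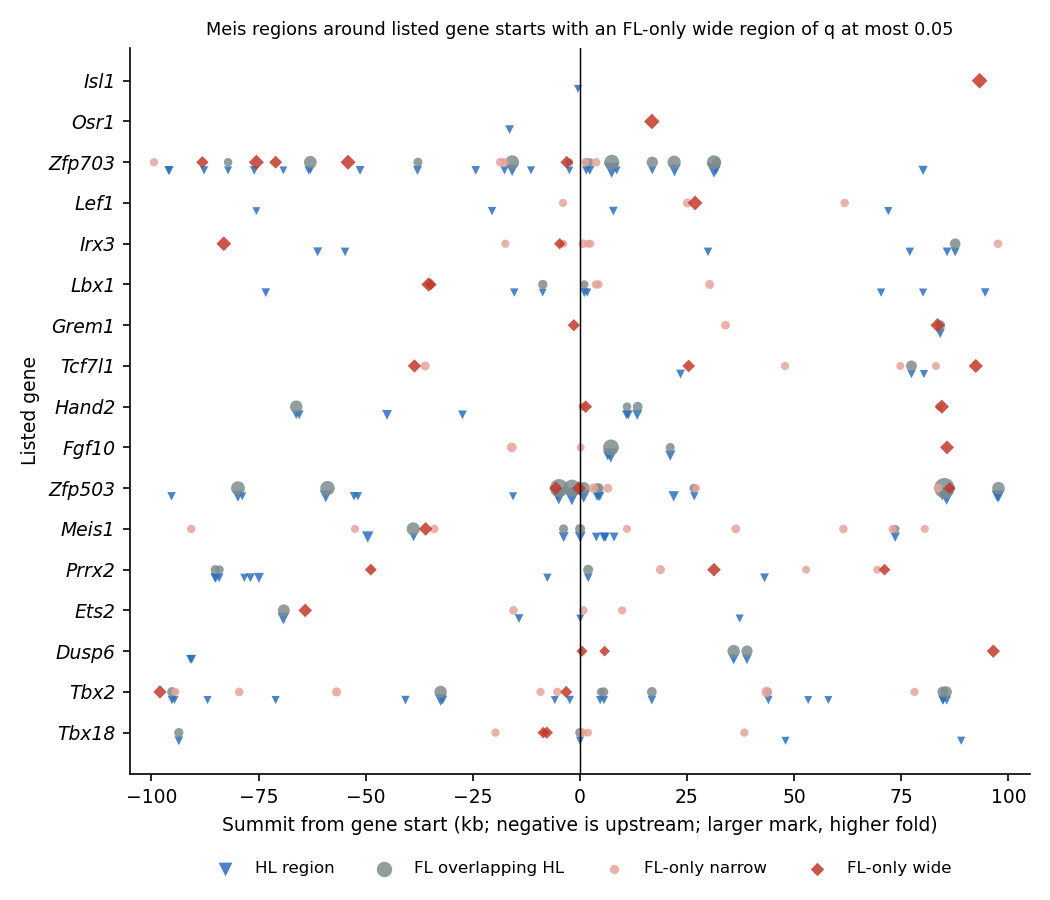
Meis regions within 100 kb of the 17 listed gene starts that had an FL-only wide region with a q of at most 0.05, by distance of the summit from the start in kb; diamonds are FL-only wide regions, circles other FL regions, triangles HL regions, and larger marks have higher folds. The genes are ordered by the fold of their highest FL-only wide region, from 5.71 at Isl1 to 2.88 at Tbx18.

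Among genes of limb initiation and identity, 8 of 10 placed genes had a member and 5 had one with a q of at most 0.05. At Isl1, a LIM homeobox gene needed for HL initiation, the member was the only FL region in the window, chr13:117006404-117006727, with a fold of 5.71 (q = 9.78e-06) at 93.3 kb downstream and no HL region within 68.1 kb of it. At Lef1, a transcription factor of the Wnt pathway, the member chr3:130840196-130840560 (fold 4.89, q = 0.000751) had the highest fold of the 4 FL regions, while the highest of the 4 HL regions reached 2.88. The member near Fgf10, the mesenchymal Fgf that induces the ectodermal ridge, had a fold of 4.12 (q = 0.0206) and lay 64.3 kb from the nearest HL region, whereas the highest FL fold in that window, 13.1, belonged to a shared region. Prrx2, a homeobox gene of limb mesenchyme, had 3 members, the highest 31.3 kb downstream with a fold of 3.91 (q = 0.0317).

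The T-box genes of this list differed. The FL identity gene Tbx5 had 8 FL regions and 5 HL regions, the latter with folds up to 2.91. None of the 8 overlapped an HL region, as was so for 77.4% of all FL regions. The only wide one, the member chr5:120198714-120199125, had a fold of 2.78 and a q of 1, with an HL region 3.67 kb away. The same member is 77.8 kb downstream of the Tbx3 start. Tbx2 and the HL identity gene Tbx4 likewise shared a member, with a fold of 2.74 (q = 1), and Tbx2 had another, 98.0 kb upstream, with a fold of 3.65 (q = 0.0462). Pitx1, the other HL identity gene, had 0 members among its 6 FL regions.

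Of 17 genes of antero-posterior patterning 9 could be placed, and Shh, Gli3, Ptch1 and Hoxd13 were among those that could not. All 9 had a member, 3 with a q of at most 0.05, against 39.5% and 11.2% of all placed starts. All 9 also had an FL region that overlapped an HL region, so having a member did not set them apart. At Hand2, a bHLH factor gene of the posterior bud, the member chr8:59884044-59884533 was 490 bp wide, with a fold of 4.30 (q = 2.81e-06) at 84.5 kb downstream and no HL region within 70.7 kb. At Grem1, which encodes a BMP antagonist, chr2:113515144-113515364 had a fold of 4.47 (q = 0.00355) at 83.5 kb downstream, yet the single HL region of the window, of fold 3.66, was only 0.305 kb from it. The member 83.1 kb upstream of Irx3, an Iroquois homeobox gene of the anterior and proximal bud, had a fold of 4.87 (q = 0.00135) and an HL region at 21.6 kb. The genes Cdon, Alx4, Alx1, Irx5, Hoxd12 and Evx2 had highest members with folds of 2.46 to 3.15 and none with a q of at most 0.05, and Hoxd12 and Evx2 shared the same one.

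Of the genes of proximo-distal patterning and the girdle, 7 of 12 had a member and 4 had one with a q of at most 0.05. At Osr1, a zinc finger gene of connective tissue and intermediate mesoderm, the only FL region within 100 kb was the member chr12:9597778-9598174. It reached a fold of 5.53 (q = 7.53e-05) at 16.8 kb downstream, and the only HL region was of fold 2.89 at 32.9 kb from it. Zfp703, a zinc finger repressor gene related to Zfp503, had the opposite surroundings, with 5 members among 22 FL and 24 HL regions. Of these 22 FL regions 12 overlapped an HL region, and over the whole FL list 3913 of 21338 regions were members. The highest pair of the 5 members were 75.5 kb and 54.1 kb upstream, with folds of 5.13 (q = 0.000595) and 5.11 (q = 0.000290). The former lay 0.358 kb from an HL region. Besides the member at its start, Zfp503 had members 5.61 kb upstream (fold 3.67, q = 0.0440) and 86.3 kb downstream (fold 2.66, q = 1), in a window whose highest fold was 22.4 in FLs and 16.9 in HLs. Tbx18, a T-box gene, had a member 7.71 kb upstream with a q of 0.0284, and Hoxa9 had 5 members with folds up to 2.73, all with a q of 1. Tbx15, Emx2, Pax1, Pax9 and Lhx9 had 0 members.

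Among the placed Meis and TALE partner genes, only Meis1 had a member with a q of at most 0.05. There, chr11:18954558-18954842 was 36.0 kb upstream with a fold of 3.97 and a q of 0.0497, 2.54 kb from an HL region of fold 2.45. The highest member at the partner gene Pbx3 had a fold of 2.29 with a q of 1, and Meis2, Pknox1 and Pknox2 had 0 members. The Wnt list gave members at 9 of 12 genes, and the limit on q was passed at 2, Lef1 and Tcf7l1, a transcriptional effector of the pathway, where the fold was 4.30 (q = 0.00988) at 92.4 kb downstream. At Rspo3, which encodes a Wnt potentiating ligand, the member had the highest fold of the window, 3.76, without passing (q = 0.105).

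In the Fgf list, 6 of 7 genes had a member and 3 had one with a q of at most 0.05. Apart from Fgf10 these were Dusp6, a phosphatase gene induced by Fgf signalling (fold 3.67, q = 0.0440, 96.5 kb downstream), and Ets2, a transcription factor gene (fold 3.82, q = 0.0468, 64.1 kb upstream). At the receptor gene Fgfr2, 0 of 7 FL regions overlapped the single HL region of the window. Of all FL regions, 77.4% overlapped no HL region. The 2 members at Fgfr2, the higher with a fold of 2.95, had a q of 1. Of 8 genes of the BMP list 3 could be placed. A member was found at all 3, but only that of Grem1 had a q of at most 0.05. The ligand gene Bmp4 had 3 FL regions and 0 HL regions within 100 kb, its member having a fold of 2.70 and a q of 1. Of the 2023 placed starts, 1635 had an HL region within 100 kb, so Bmp4 was not alone in having none. In the retinoic acid list 1 of 5 genes had members, Nr2f2, with a highest fold of 3.36 (q = 0.815).

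None of the 5 placed cartilage and bone genes (Sox9, Sox5, Sox6, Col2a1 and Runx2) had a member, against 39.5% of all placed starts with one. With 5 genes this is not read as a lack of members. All 5 had an HL region and 4 had an FL region that overlapped one. The lists of genes that mark other cells of the bud had few placed genes. Of the muscle precursor genes, Lbx1 had 2 members 35.3 kb and 34.8 kb upstream, the higher of which, chr19:45345519-45345754, had a fold of 4.50 (q = 0.000245), and Pax3 had 0. Of 3 placed ectoderm genes, Tfap2a had a member of fold 2.32 (q = 1), and Trp63 and Krt5 had 0. No blood or vessel gene of the list could be placed. Binding near a gene does not give the cell type in which it occurred, and the part of other cells in the members was not tested.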

How the data were processed

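Meis1 and Meis2 ChIP-seq lists of FL and HL buds were used, 1 ChIP library per limb, each called against the input of its limb. Per the labels and the study's methods, the authors trimmed reads with cutadapt 1.3, mapped them to mm9 with BWA and called peaks with MACS2, splitting them into summits. The deposited fold is a ratio of ChIP signal to local input. The deposited p and q are on a −log10 scale, and the deposited score follows the −log10 p and was not used. The highest p was 0.0220 in FLs and 0.0217 in HLs. Reads per library were not analysed here.

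The fold of a region is that of its highest summit, and its p and q are the smallest among the summits. Distances between regions ran from edge to edge, and those to genes from the summit. A gene start was kept where all its distances agreed within 2 bp, and strands came from the distances or from GENCODE M21 (GRCm38), which also gave gene order and length. No coordinate was converted. No test was made, and shares have 95% Wilson intervals. Overlaps, gaps and starts were tested on simulated data. The named regions were the 15 members with the highest fold, the 5 widest, the 5 with the most summits, the 5 largest runs with those tied in size, and the highest member within 100 kb of each listed gene. Other regions named in runs, at listed genes and at gene starts were chosen after their values were seen. The values of 1 listed gene are not reported here. The members and lists were chosen with earlier results of these data known. Alternatives changed the width limit, the overlap, the cutoffs, the windows and the gaps. Python 3.11.15, numpy 2.4.6, pandas 2.3.3 and matplotlib 3.10.9 were used.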

Additional observations from a re-analysis of the deposited data

How the results depend on the processing

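No paired analysis was possible because each limb had 1 library and no result comes from a test. Of 41 alternatives, 14 stayed within the counting interval of the value, or within 1.5 times a count, and 27 moved it.

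The number of members was 8851 at a minimum width of 150 bp, 986 at 300 bp and 102 at 500 bp, and 1542 with FL regions of p at most 0.0005. The other changes of overlap, HL cutoff, list length and chromosomes gave 3321 to 4960. The share of wide FL regions with no HL region was 36.0% at 300 bp, 49.0% with no HL region within 1000 bp, 69.3% when HL regions were allowed to cover the smaller part of a region, 36.1% at p at most 0.0005 and 51.2% with the FL list shortened to the length of the HL list. At 300 bp, at p at most 0.0005 and with the shortened list, the median fold was 3.53, 3.94 and 3.06, and the share with q at most 0.05 was 38.8%, 53.5% and 24.8%. In place of that limit, q at most 0.01 gave 15.2%, p at most 0.0005 gave 39.4% and a fold of at least 5 gave 6.44%. The share with an HL region within 10 kb was 26.6% without HL regions within 1000 bp and 30.8% at p at most 0.0005, and it was 24.8% within 5 kb and 67.4% within 50 kb. A placed start was within 2 kb of 2.27% and within 10 kb of 5.14%. Listed genes with a member numbered 17 with q at most 0.05 only. Runs numbered 53 with gaps of at most 20 kb and 240 with 100 kb. The cause of these shifts was not tested.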

Other observations

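No HL region and no other FL region lay within 100 kb of 349 members (8.92%, 95% Wilson interval 8.07 to 9.85%). Their median fold was 3.24, and 114 of them had a q of at most 0.05 (32.7%, 28.0 to 37.8%), against 21.1% of all members and 17.4% of all FL regions.

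The share of wide FL regions with no HL region differed between chromosomes, from 45.4% on chromosome 3 (187 of 412, 40.6 to 50.2%) and 46.2% on chromosome 13 (158 of 342, 41.0 to 51.5%) to 61.3% on chromosome 10 (219 of 357, 56.2 to 66.2%). The chromosome X held 35 members among 68 wide FL regions (51.5%, against 54.7% of all wide FL regions) and 0 wide HL-only regions among 17 wide HL regions (against 29.3% of all wide HL regions). The sex of the pooled embryos was not determined.

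A run of 4 members near Sfi1, chosen after its values were seen, had folds of only 1.53 to 1.77 in a stretch of 51.3 kb that held 28 FL and 24 HL regions.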
